A study of Caenorhabditis elegans with 10 samples.

Results

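The histone genes of Caenorhabditis elegans were followed in dauers, the arrested and stress-resistant larval stage, of 2 genotypes. The members were all genes in the count tables named his or hil with a number, plus htz-1 and hcp-3, which gave 82 of 20222 genes. One genotype carried the daf-2 allele e1370, a temperature-sensitive change in the insulin-like receptor gene that gives dauers at 25°C, and is called daf-2. The other carried the same daf-2 allele together with gk290, an allele of chd-7, which encodes a chromatin-remodelling ATPase of the CHD family, and is called the double mutant. Both therefore shared the daf-2 mutation, and 5 libraries of total RNA were made from each after 10 days at that temperature. Each genotype was a single combination of alleles, and no animals with a wild-type daf-2 gene were analysed here. No label states that the libraries of a genotype stem from different cultures. The p-values therefore refer to the spread among these libraries, part of which may be technical.

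DNA in the nucleus is wrapped around nucleosomes built of the core histones H2A, H2B, H3 and H4, and linker histones of the H1 family bind where the DNA enters and leaves. In animals most core histone genes lie in clusters, have no introns and are used during S phase, and their mRNAs typically end in a stem loop bound by the protein SLBP rather than in a poly(A) tail. Replacement variants typically differ: their genes have introns, their mRNAs are polyadenylated, and they are made outside S phase. The H3 variant genes his-69 and his-70 are exceptions in structure, with 1 annotated exon each. H3.3 is the replacement form of H3, H2A.Z (encoded by htz-1) sits near promoters, and CENP-A (encoded by hcp-3) marks the chromosome regions that form kinetochores. Whether the libraries were made from poly(A) RNA is not given in the sources used here.

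Libraries held between 7331885 and 14997608 reads on genes. The chd-7 transcript was read at 230 ± 22.4 CPM (read counts scaled to a common library size; SD, n = 5) in daf-2 and 265 ± 20.8 CPM in the double mutant, with an adjusted p of 0.137. Reads were counted over all of chd-7, so this level is no check of a deletion within it. All 6 genes listed as dauer stage markers passed the low-count filter, and 2 of them, cut-1 and sip-1, fell in the double mutant. The summed level of all 6 lay between 1273 and 2423 CPM in daf-2 and between 803 and 1730 CPM in the double mutant. Among libraries of the double mutant, replicate 4 was the highest for sip-1 (113 CPM), as it was for the summed germline list (658 CPM). The same library was the lowest for cut-1 (0.327 CPM), col-2 (2.51 CPM) and col-40 (3.49 CPM). The fall of sip-1 is therefore not read here as a change of dauer stage. Of 21 tested germline and oocyte markers 15 fell, and all 7 body wall muscle markers rose. Of 6 intestine markers, all tested, 2 rose and 3 fell. These counts stand against 18.3% of all 12499 tested genes that fell and 17.9% that rose. All 4 transcripts of the uterus and yolk list, which mark adults, fell, with sums of 81.97 to 535 CPM in daf-2 and 5.27 to 27.9 CPM in the double mutant. With 3 libraries that stand apart, named below, left out together, 3 of the 4 fell and vit-6 was not called (adjusted p = 0.452). The part of these transcripts in the histone values was not tested. In bulk samples, fewer cells of a type and less RNA per cell cannot be told apart.

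Most histone reads came from a small part of the set. Of the 82 genes, 50 had at least 1 read in any library and 32 had none. A count of 0 allows up to 0.0266 CPM over the 10 libraries together (3 reads by unscaled totals, counting error only). Together the 82 genes took 210969 reads, 0.187% of all reads on genes, and hil-1 alone took 32.7% of those. Only 17 genes passed the low-count filter and could be tested, and the 33 others with reads had at most 94 reads in all 10 libraries together. In the Ensembl annotation of the WBcel235 genome, 18 of the 82 genes have several exons, and all 18 also have an annotated untranslated region. These 18 genes took 99.5% of the histone reads, and 16 of them were tested. The 64 genes with a single exon have no annotated untranslated region, shared 1060 reads and gave 1 tested gene, the H4 gene his-60.

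The single-exon genes were further divided by how the annotation names them. For 35 of them the annotation gives 1 name to several loci, so that his-13 and his-25, for example, both carry the name his-9. Of these 35 genes 31 had no read, and the other 4 had 96 reads in all, of which 79 were on the H3 gene his-25. Of the 29 single-exon genes with a name of their own only his-39, a short gene with no assigned class, had no read, and the 29 together had 964 reads. Reads that align to several places are not counted to any gene, so near-identical copies lose reads, and a count of 0 there does not show that a copy was silent. The share of reads with several alignments was 5.53% to 7.24% in daf-2 and 7.42% to 11.2% in the double mutant, with no overlap between genotypes. How many of those reads came from histone genes was not tested. The sequences of the copies were not compared here.

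**Figure D1:**
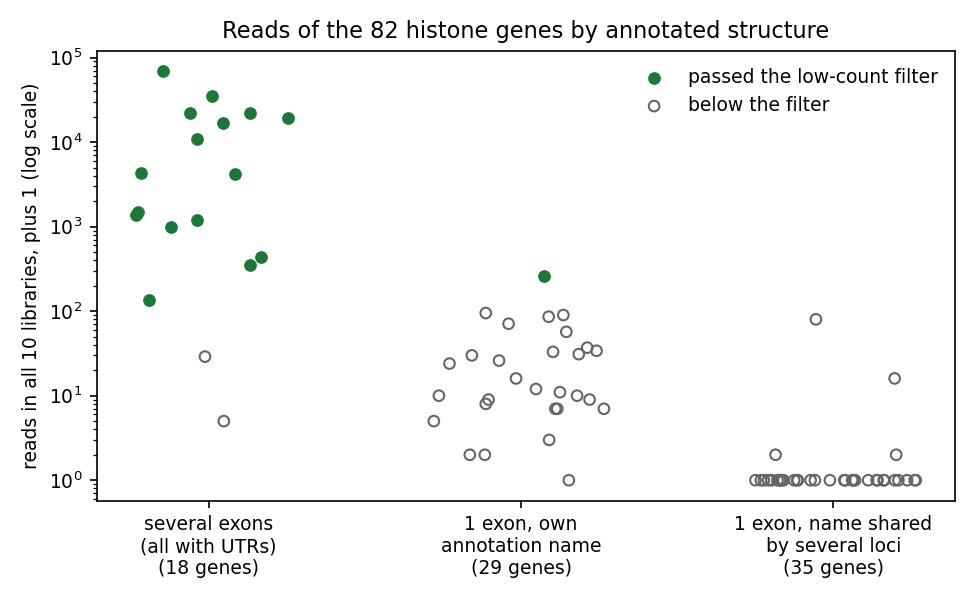
Reads of each of the 82 histone genes summed over all 10 libraries, plus 1, on a log scale, by annotated structure. Each point is a gene, and horizontal position within a column is random. Of the genes with several exons 16 of 18 passed the low-count filter (filled points), whereas 31 of the 35 genes at the right had no read.

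The H2A, H2B and H4 classes were each read almost entirely from 1 gene with an intron. The gene his-35 took 99.1% of 22024 reads on 17 H2A genes, his-41 took 98.4% of 11062 reads on 16 H2B genes, and his-37 took 99.01% of 35736 reads on 16 H4 genes. These 3 genes are neighbours on chromosome V, his-35 from 9544659 to 9545288 on the minus strand, his-41 from 9545536 to 9546264 and his-37 from 9547105 to 9547607 on the plus strand. The 15 core H3 genes had 177 reads together, and none was tested. H3 reads came instead from the H3 variant genes, mainly his-71 (22090 reads) and his-72 (19213 reads). The levels above are read numbers, which depend on gene length and leave out reads that align to several places. The shares therefore do not show how much of each histone mRNA came from the near-identical copies.

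Per kilobase of exon, the order in daf-2 was led by his-37 at 819.8 ± 160 CPM per kb (SD, n = 5) and the linker gene hil-1 at 785 ± 302 CPM per kb, which differed by less than their spread. The H2A gene his-35 followed at 452 ± 68.8 CPM per kb and the H3.3 gene his-71 at 381.3 ± 84.4 CPM per kb, again within their spread of each other. The H3.3 gene his-72 was at 279 ± 43.1 CPM per kb, the linker gene hil-3 at 226 ± 18.2 CPM per kb and his-41 at 187 CPM per kb. Below these came htz-1 at 67.1 ± 18.9 CPM per kb and the linker gene his-24 at 63.1 ± 10.8 CPM per kb, which again differed by less than their spread. The next gene in the order was the linker gene hil-4 at 23.9 CPM per kb. The only tested gene without introns, his-60, was at 9.69 CPM per kb.

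In the comparison of genotypes, 10 of the 17 tested histone genes fell in the double mutant and none rose. The 10 were the linker genes his-24, hil-3, hil-4, hil-5 and hil-8, the H2A gene his-35, the H3 variant genes his-71 and his-74, and htz-1 and hcp-3. Over all 12499 tested genes, 18.3% fell and 17.9% rose in edgeR's quasi-likelihood test at an adjusted p under 0.05. No histone gene rose at an unadjusted p under 0.05 (0 of 17), and none rose with DESeq2 or limma-voom. The median log2 fold change was -0.79 over the 17 genes and -0.030 over all tested genes. In 4 of the 17 genes, his-24, hil-3, hil-8 and his-35, every library of the double mutant lay below every daf-2 library, against 10% of all tested genes. The count of falling genes was 5 without replicate 1 or replicate 2 of the double mutant and 6 without its replicate 3, and between 7 and 11 without any other single library. Without replicate 4 of the double mutant and replicates 2 and 3 of daf-2, which stand apart in the germline list (658 CPM) and in the list of uterus and yolk transcripts (535 and 486 CPM, against at most 116 CPM in the other daf-2 libraries), 9 of 18 tested histone genes fell, against 13.6% of all genes tested there.

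**Figure D2:**
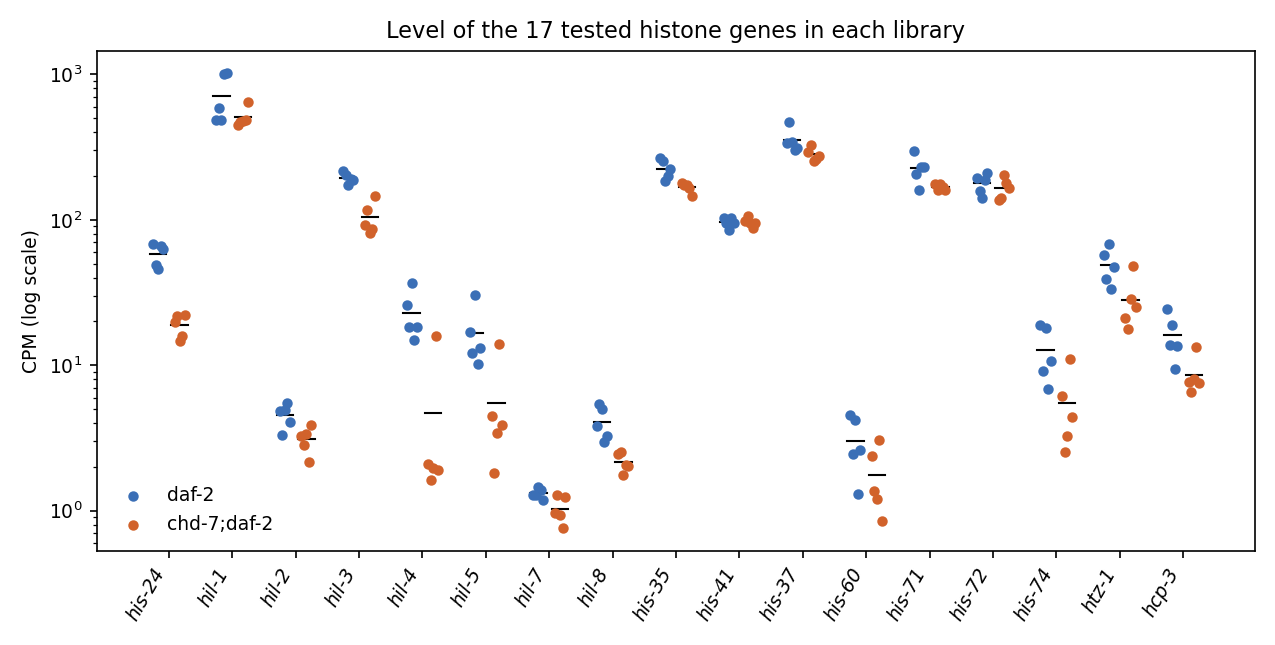
CPM of the 17 tested histone genes on a log scale, with a point for each of the 5 daf-2 (blue) and 5 chd-7;daf-2 (orange) libraries and a black line at each mean. The libraries of the genotypes separate fully for his-24, hil-3, hil-8 and his-35, and a single orange point of hil-4 and of hil-5 lies among the blue ones.

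**Figure D3:**
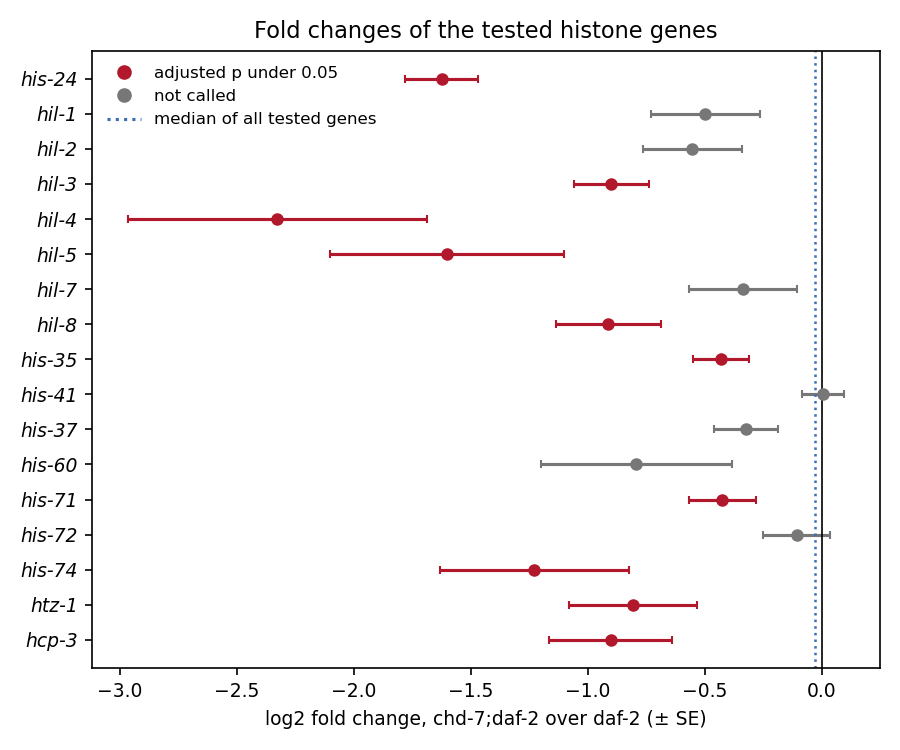
Log2 fold change (double mutant over daf-2) with its SE for the same 17 genes, called genes in red. Of the 17 genes 16 lie below 0, and his-41 lies at 0.

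Among the linker histones the lowest p was that of his-24, which encodes a histone H1 and lies on chromosome X from 14490094 to 14491119. It was at 67.7, 48.99, 46.1, 65.8 and 62.8 CPM in daf-2 replicates 1 to 5 and at 19.9, 21.6, 14.6, 15.9 and 22.2 CPM in those of the double mutant. Every daf-2 library was thus above the highest double mutant library, with no single library standing apart. The log2 fold change was -1.63 ± 0.16 (SE), a 3.09-fold lower level (adjusted p = 2.95e-05), and it stayed between -1.71 and -1.55 without any single library. Its exons share 174 bases with 2 non-coding genes on the other strand.

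The linker gene hil-3, also on chromosome X (8159169 to 8160084), was at 216, 203, 174, 192 and 188 CPM in daf-2. In the double mutant it was at 92.1, 117, 81.1, 85.95 and 146 CPM. The genotypes did not overlap, and replicate 5 came nearest to daf-2. Its log2 fold change was -0.90 ± 0.16 (adjusted p = 0.00145). A less abundant linker transcript, hil-8 (chromosome I, 5463117 to 5469639), had 4.10 ± 1.07 CPM in daf-2 and fell to 2.17 ± 0.323 CPM (SD, n = 5). Its log2 fold change was -0.91 ± 0.23 (adjusted p = 0.00936). That call was lost without the 3 libraries that stand apart (adjusted p = 0.0923).

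The genes hil-4 (chromosome V, 4754313 to 4755453) and hil-5 (chromosome I, 5774585 to 5775610) also fell, but 1 library of the double mutant stood apart from the others. In daf-2, hil-4 was at 26.1, 18.3, 36.5, 14.9 and 18.2 CPM. In the double mutant it was at 2.11, 1.64, 1.95, 15.8 and 1.90 CPM, so that replicate 4 lay inside the daf-2 range and the other 4 far below it. The log2 fold change was -2.33 ± 0.64 (adjusted p = 0.0170), and -3.58 without replicate 4 (adjusted p = 2.44e-05). Replicate 4 was singled out from these same values, as the highest library of the lower genotype. Its omission lowers the p for that reason, here and for hil-5, his-74, htz-1 and hcp-3, and adds no support. The gene hil-5 was at 16.9, 12.1, 30.4, 10.2 and 13.2 CPM in daf-2 and at 4.48, 1.82, 3.44, 14.05 and 3.86 CPM in the double mutant. Its libraries followed the same order as those of hil-4 in daf-2 apart from small differences, with replicate 3 highest and replicate 4 lowest. Its log2 fold change was -1.60 ± 0.50 (adjusted p = 0.0284) and -2.28 without replicate 4 of the double mutant (adjusted p = 0.000958). The call of hil-5 was lost in 5 of the 10 fits that each left out 1 library (adjusted p up to 0.0694) and with no low-count filter (adjusted p = 0.0555).

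The most abundant linker gene, hil-1 (chromosome V, 14949777 to 14952799), was not called. It was at 485, 582, 482, 1011 and 1013 CPM in daf-2 and at 446, 473, 481, 484 and 646 CPM in the double mutant. Replicates 4 and 5 of daf-2 stood well above the other 3, which overlapped the double mutant, and the log2 fold change was -0.50 ± 0.23 (adjusted p = 0.113). In the same 2 daf-2 libraries the 7 neuron markers, all tested and none called, summed to 2478 and 2440 CPM, against 1726 to 1866 CPM in the other daf-2 libraries, and the part of this in the result was not tested. The genes hil-2 (-0.55 ± 0.21, adjusted p = 0.0576) and hil-7 (-0.34 ± 0.23, adjusted p = 0.295) were not called and stayed under 6 CPM. A lower call of hil-2 was gained with limma-voom (adjusted p = 0.0385), with upper-quartile scaling (adjusted p = 0.0463), and without replicate 5 of the double mutant (adjusted p = 0.0382) or replicate 2 of daf-2 (adjusted p = 0.0348). The gene hil-6 had 28 reads in all libraries together and was not tested.

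The 9 linker genes summed to 1017 ± 264 CPM in daf-2 and 646 ± 104 CPM in the double mutant, with overlap between genotypes. The share of these reads from his-24 was 4.82% to 8.23% in daf-2 and 2.48% to 3.48% in the double mutant, with no overlap. The share from hil-1 was 58.99% to 77.7% in daf-2 and 76.0% to 81.8% in the double mutant. These shares follow from the values above and were not tested on their own.

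**Figure D4:**
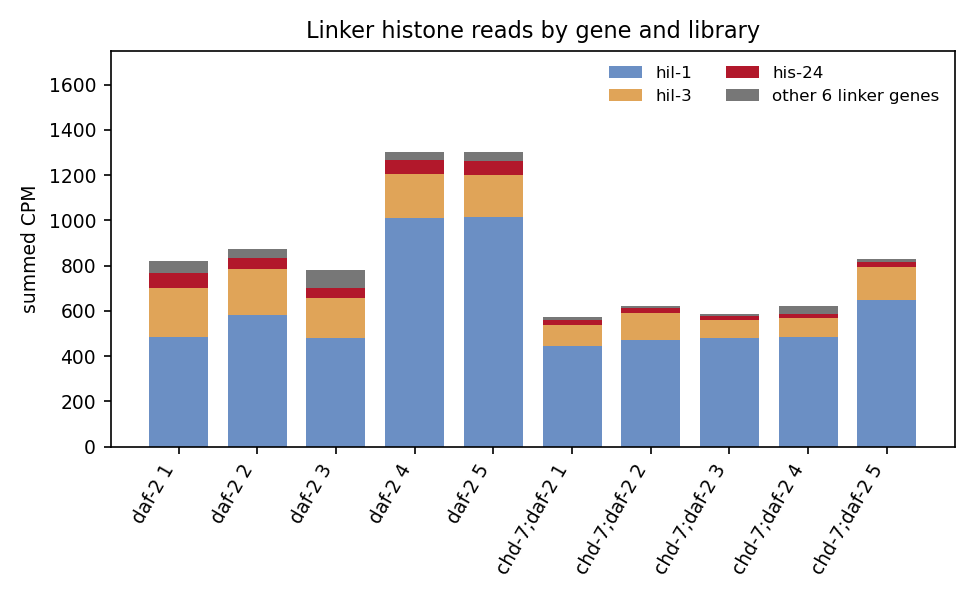
Summed CPM of the 9 linker histone genes in each library, stacked by gene. hil-1 makes up most of every bar, daf-2 replicates 4 and 5 are the tallest at 1304 CPM each, and the his-24 part is smaller in all 5 chd-7;daf-2 libraries.

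Of the 3 neighbouring core genes on chromosome V only his-35 was called with TMM scaling and no block, and differences between their fold changes were not tested. The H2A gene his-35 was at 265, 253, 185, 199 and 223 CPM in daf-2 and at 178, 174, 172, 165 and 146 CPM in the double mutant, where all libraries were lower. It fell with a log2 fold change of -0.43 ± 0.12 (adjusted p = 0.0165) and stayed called without any single library (adjusted p up to 0.0347). The H2B gene his-41 averaged 96.2 ± 7.21 CPM in daf-2 against 96.5 ± 6.40 CPM in the double mutant (SD, n = 5). Its fold change of 0.0045 ± 0.090 on the log2 scale was within the spread of the libraries (adjusted p = 0.972), and its sign changed with the scaling. Of its 515 exonic bases 173 are shared with the gene C50F4.6 on the same strand, where reads may have been set aside as ambiguous. The H4 gene his-37 was at 335, 471, 340, 302 and 310 CPM in daf-2, with replicate 2 highest, and at 293, 325, 252, 261 and 273 CPM in the double mutant. It was not called at -0.32 ± 0.14 (adjusted p = 0.0845), but was called lower with the replicate number as a block (adjusted p = 0.0329) and with total-count scaling (adjusted p = 0.0436). The ratio of his-35 to his-41 reads was 1.93 to 2.66 in daf-2 and 1.53 to 1.87 in the double mutant, without overlap, given here as a description.

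The H3 variants are the products of his-69 to his-72 and his-74, and his-71 and his-72 encode H3.3. The gene his-71 (chromosome X, 7981382 to 7982070) was at 298, 208, 160, 230 and 230 CPM in daf-2 and at 175, 160, 175, 169 and 161 CPM in the double mutant. The double mutant libraries were close together, and daf-2 replicate 3 lay at their lower end, just below the lowest of them, whereas the other 4 daf-2 libraries lay above them all. This gave a log2 fold change of -0.42 ± 0.14 (adjusted p = 0.0374), a call lost in 8 of the 10 fits that left out 1 library (adjusted p up to 0.0796). The level of his-72 (chromosome III, 12367475 to 12369050) averaged 178 ± 27.5 CPM in daf-2 against 165 ± 28.1 CPM in the double mutant (SD, n = 5). At -0.11 ± 0.14 it was not called (adjusted p = 0.583). The ratio of his-71 to his-72 reads was 1.101 to 1.55 in daf-2 and 0.854 to 1.29 in the double mutant, with overlap.

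The third tested H3 variant gene, his-74 (chromosome V, 12659704 to 12660330), was read at a much lower level. It was at 18.9, 9.13, 17.9, 6.91 and 10.7 CPM in daf-2 and at 6.14, 2.54, 3.25, 11.002 and 4.39 CPM in the double mutant. Replicate 4 was again the highest library of the double mutant and lay inside the daf-2 range. It fell with a log2 fold change of -1.23 ± 0.40 (adjusted p = 0.0348), and -1.63 without that library (adjusted p = 0.00518), whereas 6 of the other omissions lost the call. The genes his-69 and his-70 had 32 and 70 reads in all libraries together and were not tested.

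The H2A.Z gene htz-1 (chromosome IV, 4446216 to 4446999) fell from 57.1, 39.5, 68.4, 33.7 and 47.6 CPM in daf-2 to 20.97, 17.7, 28.5, 48.5 and 25.3 CPM in the double mutant. Apart from replicate 4, all libraries of the double mutant were below all of daf-2. Its log2 fold change was -0.81 ± 0.27 (adjusted p = 0.0379), and -1.09 without replicate 4 (adjusted p = 0.00320). The call was lost in 7 of the 10 fits without 1 library, with the replicate number as a block (adjusted p = 0.0549) and with no low-count filter (adjusted p = 0.0582). The CENP-A gene hcp-3 (chromosome III, 9615306 to 9616470) was at 24.2, 13.8, 18.9, 9.47 and 13.6 CPM in daf-2 and at 7.63, 6.54, 7.99, 13.3 and 7.53 CPM in the double mutant. Here too replicate 4 lay within the daf-2 range and the other 4 below it. Its fold change of -0.90 ± 0.26 on the log2 scale (adjusted p = 0.0201) was -1.11 without replicate 4 (adjusted p = 0.00605), and the call was lost without replicate 1 or 2 of the double mutant. Of the exonic bases of hcp-3, 48 of 1014 are shared with genes on the other strand. The second CENP-A gene, cpar-1, falls outside the name rule and averaged 5.11 ± 2.01 CPM in daf-2 against 1.16 ± 1.16 CPM in the double mutant (adjusted p = 0.0102).

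The 10 falling genes thus showed 2 profiles across libraries, a division made after the values were seen and not tested. For hil-4, hil-5, his-74, htz-1 and hcp-3, replicate 4 of the double mutant was at 8.32, 4.13, 2.70, 2.09 and 1.79 times the mean of the other 4 libraries of its genotype. For his-24, hil-3, hil-8, his-35 and his-71 the same ratio was 0.812, 0.789, 0.941, 0.982 and 1.01. The summed level of the 22 germline and oocyte markers was 4.37 times that mean in replicate 4, at 658 CPM against 122 to 178 CPM, and it was 609 to 1473 CPM in daf-2, highest in replicate 3. The marker nos-2 had no read in any library. The summed S phase list was at 668 CPM in replicate 4, against 398 to 477 CPM in the other libraries of the double mutant and 562 to 938 CPM in daf-2. The 6 sperm markers went the other way at low levels, with sums of 1.44 to 4.01 CPM in daf-2 and 6.36 to 8.64 CPM in the double mutant. Only 1 of them, nspd-7, was tested, and it was not called (adjusted p = 0.0555), but it was called higher with DESeq2 and with limma-voom. Of the 6, 3 had no read in any library. The marker spe-11 averaged 0.0138 CPM in daf-2 and 2.16 CPM in the double mutant. It passed the filter without the 3 libraries that stand apart (adjusted p = 0.00829). The part of germline RNA in the first profile was not tested. In replicate 4, his-24 and hil-3 were at 15.9 and 85.95 CPM, within the range of the other libraries of the double mutant.

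**Figure D5:**
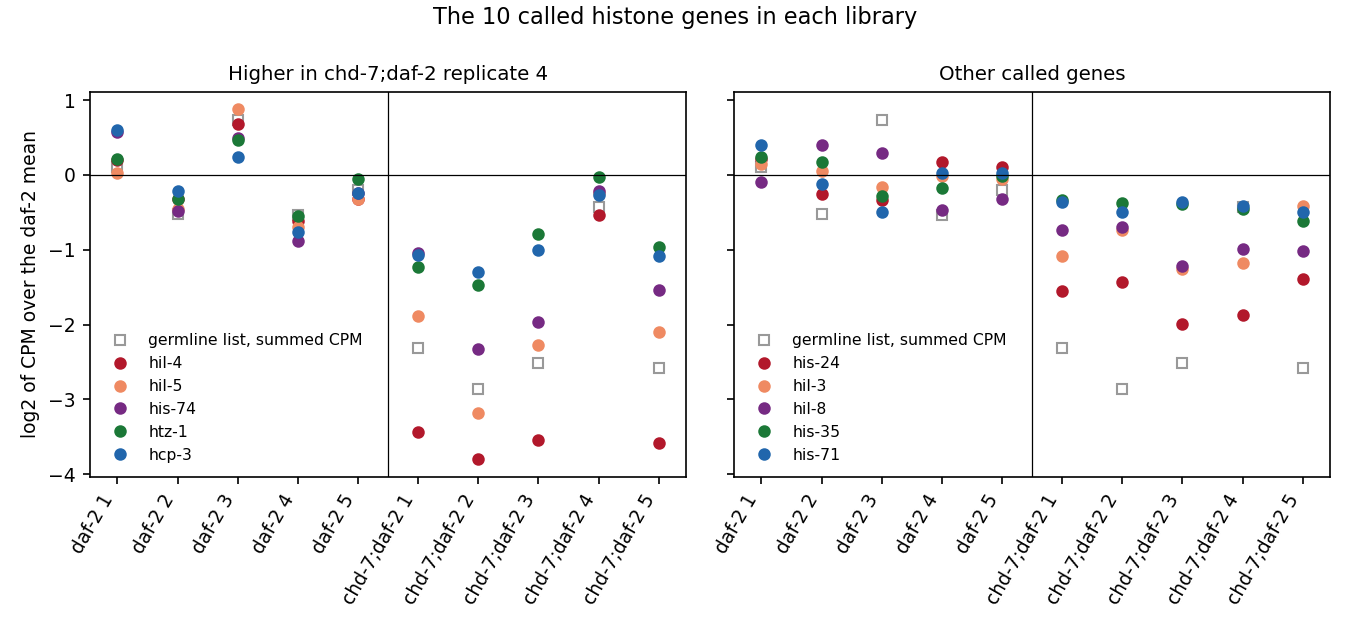
Log2 of CPM over the daf-2 mean in each of the 10 libraries for the 10 called histone genes, with the summed germline list as open grey squares in both panels. In chd-7;daf-2 replicate 4 the 5 genes on the left and the germline list lie within the daf-2 range, and the 5 genes on the right do not rise with them.

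Of the single-exon genes only his-60 had enough reads to pass the filter with all 10 libraries. Together the 64 genes had 74 to 202 reads per library in daf-2 and 60 to 97 in the double mutant, or 8.78 to 18.5 CPM and 5.11 to 8.71 CPM. Among them were 4 neighbours on chromosome IV, his-61 and his-62 from 7485834 to 7486916 and his-60 and his-59 from 7487681 to 7488659, which hold an H2A, an H2B, an H4 and an H3 gene. The H4 gene his-60 was at 4.52, 2.45, 4.21, 1.31 and 2.62 CPM in daf-2 and at 2.37, 1.36, 1.21, 3.05 and 0.851 CPM in the double mutant, with overlap. It was not called at -0.79 ± 0.41 (adjusted p = 0.148). Among genes below the filter, his-61, his-62 and the H2A gene his-68 had the most reads, with 94, 89 and 85. The gene his-68 had 18, 7, 20, 8 and 8 reads in daf-2 and 3, 1, 3, 12 and 5 in the double mutant, so that replicate 4 was again its highest. With no low-count filter 50 histone genes entered the fit, 8 fell and none rose, and no gene below the filter was called. The gene his-62 had 15, 9, 16, 12 and 3 reads in daf-2 and 4, 5, 6, 13 and 6 in the double mutant. Only when replicate 4 of the double mutant was left out did it pass the filter and be called lower (log2 fold change -1.16, adjusted p = 0.0419). That fit takes out its highest library of the double mutant, so the call is no support for a fall. With all 10 libraries and no filter his-62 was not called (adjusted p = 0.304).

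Genes whose products handle histones were compared for context, in lists described by counts and medians only. Of 20 genes listed for histone chaperones, deposition and mRNA 3′ end processing, all tested, 4 fell, near the 18.3% of all tested genes. None rose, and the median was -0.24 on the log2 scale. The 4 included cpar-1, which is itself a histone gene and not a chaperone gene, so the count is not of chaperone genes alone. The others were the ASF1 chaperone gene asfl-1 (7.26 ± 3.14 to 2.70 ± 1.66 CPM, adjusted p = 0.0204), the CAF-1 subunit gene chaf-2 (12.1 ± 4.74 to 6.63 ± 2.16 CPM, adjusted p = 0.0269) and the FACT subunit gene hmg-3 (25.8 ± 9.76 to 11.5 ± 6.35 CPM, adjusted p = 0.0342). The SLBP gene cdl-1, whose product binds the stem loop of histone mRNAs, missed the threshold at -0.57 ± 0.22 (20.8 to 14.02 CPM, adjusted p = 0.0608), and the H3.3 chaperone gene hira-1 was at -0.23 ± 0.12 (adjusted p = 0.166). Replicate 4 was the highest library of the double mutant for asfl-1, chaf-2, hmg-3, cdl-1 and cpar-1. The count of falling genes was 7 without that replicate and 2 without replicate 1, 2, 3 or 5 of the double mutant or replicate 3 of daf-2.

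Of 27 S phase and replication genes, all tested, 10 fell and none rose, with a median of -0.60. Those of lowest p were the helicase genes mcm-2 (-1.92 ± 0.44, adjusted p = 0.00709), mcm-5 (-1.04 ± 0.29, adjusted p = 0.0158) and mcm-4 (-1.06 ± 0.29, adjusted p = 0.0165), and the primase gene pri-2 (-1.18 ± 0.29, adjusted p = 0.00877). The count of called S phase genes was 7 without replicate 1 or 2 of the double mutant or replicate 3 of daf-2, and 14 without replicate 4 of daf-2. Of 28 histone modifier genes, all tested, 5 fell and none rose, with a median of -0.14. The H3K9 methyltransferase gene set-25 was at 17.6 ± 3.53 CPM in daf-2 and fell to 10.3 ± 0.980 CPM (log2 fold change -0.76 ± 0.15, adjusted p = 0.00332). The H3K36 methyltransferase gene mes-4 fell by 1.13 ± 0.27 (adjusted p = 0.00772), set-9 by 1.54 ± 0.39 (adjusted p = 0.0108) and mes-2, which encodes the enzyme of the Polycomb-like complex, by 0.36 ± 0.11 (adjusted p = 0.0266). The modifier count was 3 without replicate 2 of the double mutant or replicates 4 or 5 of daf-2. Of all tested genes 18.3% fell. The 4 of 20 genes of the chaperone list, with the histone gene cpar-1 among them, and the 5 of 28 modifier genes were near that share. They show nothing particular to those lists. The 10 of 27 S phase genes and the 10 of 17 histone genes were above it.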

How the data were processed

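The authors deposited whole-number read counts per gene, not normalized, for 10 libraries. The submitters' processing notes name HTSeq 0.9.1, STAR 2.5.4a, DESeq2 1.20.0 and FastQC 0.11.5, with no role or order. Genome build, annotation and strand setting: not given in the sources used here, so reads of genes overlapping on opposite strands may not be told apart. HTSeq's tally lines stayed out of all totals. In R 4.3.3, edgeR 4.0.16 filtered genes with filterByExpr (minimum count 10, total 15), scaled libraries by TMM and compared the genotypes with its robust quasi-likelihood F test, with no covariate and Benjamini-Hochberg adjustment over all 12499 tested genes. The SE was obtained by dividing the absolute log2 fold change by √F. CPM use the scaled library sizes. By the unscaled totals of reads on genes, 3 reads are worth 0.200 to 0.409 CPM in a library. Members were matched through RefSeq locus tags to the Ensembl 115 annotation of WBcel235 (82 of 82), which may differ from that used for counting. Classes were assigned by hand and, for the core histones, checked against annotated coding lengths. The members and lists were chosen with earlier results of these data known. Every tested member is named, as are the 3 of most reads below the filter and up to 4 called genes of each context list; cdl-1 and hira-1 were added after their values were seen. The test was tried on simulated counts. Alternatives were 3 other scalings, limma 3.58.1 (voom, libraries weighted by quality), DESeq2 1.42.0, no filter, a stricter filter (5 CPM in 5 libraries), a replicate block, leaving out each library and, chosen after seeing the data, leaving out 3 libraries together. The planned measure of sequence uniqueness was not run. No sequences were used here.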

Additional observations from a re-analysis of the deposited data

Results flagged for a closer look

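In 8 of 56 sets of 5 libraries examined, 1 library stood apart from the other 4 by more than Dixon's critical value. The sets are not independent, because class sums repeat their main genes. The count can therefore not be set against the 1 in 20 that chance gives. In replicate 4 of the double mutant hcp-3 was at 13.3 CPM (next highest library 7.99), hil-4 at 15.8 CPM (next 2.11) and hil-5 at 14.05 CPM (next 4.48). The summed germline and oocyte list was at 658 CPM in the same library (next 178), and the part of germline RNA in the histone values was not tested. In replicate 5 of the double mutant hil-1 was at 646 CPM (next 484), and with it the linker class at 828 CPM (next 622). In replicate 2 of daf-2 his-37 was at 471 CPM (next 340), and with it the H4 class at 475 CPM (next 347).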

How the results depend on the processing

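Against 10 falling histone genes, 10 fell with DESeq2, 10 with RLE scaling, 11 with limma-voom, total-count or upper-quartile scaling, 9 of 13 tested with the stricter filter and 8 with no filter. Leaving out 1 library gave 5 to 11, with none higher in any of these fits, and the cause of the lower counts was not tested beyond there being fewer libraries. The chaperone list had 7 called genes without the 3 libraries that stand apart, and 2 to 7 without 1 library, against 4; the modifier list had 3 to 7, against 5. The log2 fold change of his-41 turned to -0.030 without the 3 libraries and to -0.028 with total-count and with upper-quartile scaling, and ranged from -0.040 to 0.037 without 1 library, never called. The median log2 fold change of all tested genes was -0.061 under both of those scalings. The replicate numbers were not taken as pairs, since not every same-numbered pair correlated above 0.1: the correlations of their deviations from the genotype means were 0.305, 0.325, -0.192, -0.181 and 0.24 for numbers 1 to 5. As a hint from the data, 5 of 10 libraries correlated best with their own number. With the replicate number as a block 10 histone genes fell, 4764 genes changed against 4523, htz-1 was not called and his-37 was. Over single genes, 272 alternative values kept their direction and side of the threshold, 32 lost the call, 6 gained it and 9 changed sign, all 9 for his-41. The few reads on single-exon genes, at most 259 per gene in all libraries, limit what can be seen of the clustered copies.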
